A study of Homo sapiens with 24 samples.

Results

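The response shared by 3 malignant T-cell lines to DNA methylation inhibitors was measured by RNA sequencing. All 24 libraries of the series entered: 18 from cells given azacitidine or decitabine at any dose, and 6 from untreated cells, each assigned by its treatment label. The lines were HH, labelled as cutaneous T-cell lymphoma, PF382, labelled as T-cell acute lymphoblastic leukemia, and TLOm1, labelled as adult T-cell leukemia. HH received azacitidine at 50, 125 or 250 nM, and PF382 and TLOm1 received it at 125, 250 or 500 nM. Every line received decitabine at 5, 12.5 or 25 nM. Exposure lasted 96 h, and drug was added every 24 h. Azacitidine libraries carried the title prefix OLC and decitabine libraries the prefix OC, each with its own untreated library of every line, here called the azacitidine set and the decitabine set. A block, 1 line within 1 set, held 1 untreated library and 3 doses, and there were 6 blocks. Set and drug cannot be told apart. Each condition was a single library, and the doses of a block share 1 untreated library, so every p-value covers no more than the spread from library to library here, which may be technical.

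Azacitidine and decitabine are analogs of cytidine. Once built into DNA they trap DNA methyltransferases, and CpG methylation is lost as cells divide. Azacitidine is also built into RNA. CpG methylation of promoters is known for keeping germline genes silent in somatic cells, T cells included, and it takes part in imprinting and in the silencing of endogenous retroviruses, whose transcripts can set off an interferon response.

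The libraries held 13892514 to 32496676 gene counts, with a median of 23561909. A level of 3 counts, the floor of detection used here, corresponded to 0.0923 to 0.216 CPM (counts scaled to a common library total). Levels below are CPM after TMM scaling, which sets libraries to a common composition with factors of 0.921 to 1.18. Of the T-cell markers, CD3E was at 34.7 CPM or more in every library. CD3D and CD3G reached at most 0.776 and 0.129 CPM in TLOm1, and LCK at most 1.42 CPM in TLOm1 and 0.668 CPM in HH. The untreated PF382 library of the azacitidine set stood apart from that of the decitabine set. Median log2 ratios were 0.99 over the glycolysis list and 1.14 over the MHC class II list. The same ratios were 0.30 and -0.42 in HH and -0.008 and -0.09 in TLOm1. Some MHC class II genes were near or under the floor in untreated PF382, such as HLA-DRB5 at 0.0584 and 0.164 CPM, so that ratio is less sure. Results that rest on the untreated PF382 library of the azacitidine set are given with and without it. Where a call was lost when 1 library was left out, the libraries are named as line and set for untreated ones.

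Treatment raised more genes than it lowered, and by more. Fold changes are on the log2 scale, from 1 edgeR model of all libraries with the 6 blocks as terms, and a gene was called at an adjusted p under 0.05. Of 16809 genes tested, 1495 (8.89%) were higher and 896 (5.33%) were lower in treated cells, 2391 (14.2%) in all. The median log2 fold change was 0.68 among the higher genes, -0.26 among the lower genes and 0.02 over all genes tested. It was 1 or more for 603 higher genes and -1 or less for 31 lower genes. In all 6 blocks the mean change was above 0 for 907 of the higher genes, against 1450 (8.63%) of all genes tested. It was below 0 in all 6 for 612 of the lower genes, against 1093 (6.5%). All 18 treated libraries lay above the untreated library of their block for 259 of the higher genes, against 272 (1.62%) of all genes tested, and below it for 221 of the lower genes, against 230 (1.37%). Without the azacitidine-set untreated library of TLOm1, 736 genes were higher and 378 lower, and without that of HH 969 and 554. Without the decitabine-set untreated library of TLOm1, 596 were lower.

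The 2 directions differed most among genes of low level. Of 3175 genes with an untreated mean under 1 CPM, 486 (15.3%) were higher and 13 (0.409%) were lower. A gene of this level passed the filter on low counts largely through treated libraries, so this split is a description. Of 13634 genes at 1 CPM or more, 1009 (7.4%) were higher and 883 (6.48%) were lower, with a median log2 fold change of 0.00. The higher genes had a median untreated level of 6.38 CPM and the lower genes 49.3 CPM.

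**Figure D1:**
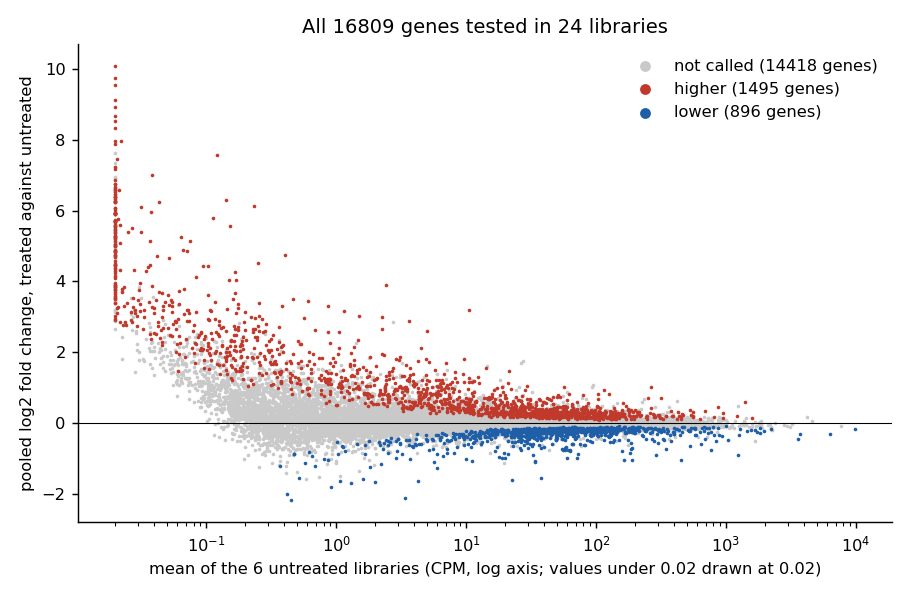
Pooled log2 fold change of treated against untreated cells (vertical axis) against the mean level in the 6 untreated libraries (CPM, log axis) for the 16809 genes tested, coloured by call. The 1495 higher genes reach far up at low untreated levels, and the 896 lower genes lie closer to 0.

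More genes were detected after treatment in every block. Counts were thinned to 13892514 per library, the smallest total, and a gene was detected at 5 or more thinned counts. The untreated libraries then held a mean of 14025 genes and the treated libraries 14533. The difference was 507.6 genes (SD 197, n = 6 blocks), from 302 in HH of the azacitidine set to 867.7 in PF382 of the decitabine set. An exact two-sided permutation test that moved the untreated label within each block gave p = 0.00269, where 4096 arrangements allow 0.000244 at the smallest. In PF382 of the decitabine set the number went from 14300 to 14593, 15108 and 15802 with rising dose, and in HH of the azacitidine set from 13717 to 13909, 13981 and 14167. In each of the 6 blocks every step of dose added genes.

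**Figure D2:**
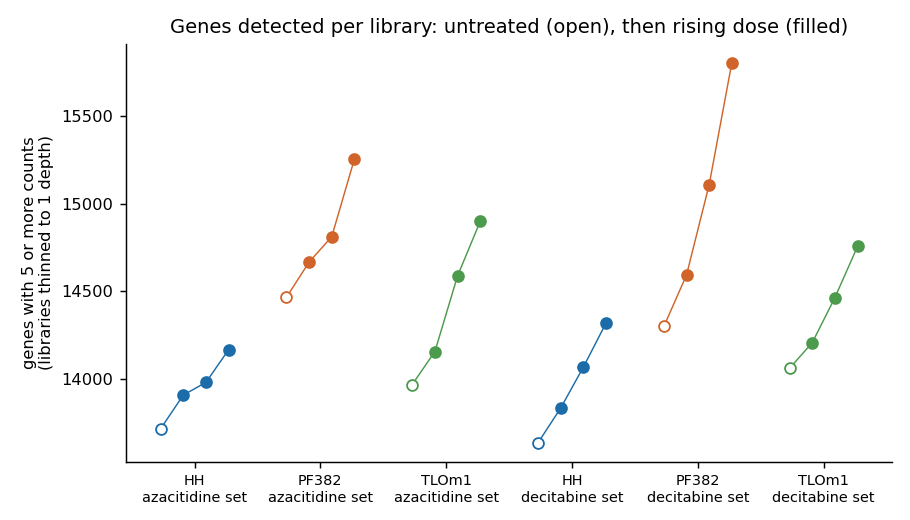
Number of genes with 5 or more counts (vertical axis, not starting at 0) in each library after thinning to 13892514 counts, for the 6 blocks of line and set. The untreated library is the lowest of its block, and the treated libraries rise from the lowest to the highest dose.

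Promoter sequences are shown for 4 genes whose changes differ in kind. MAEL, a gene of the piRNA pathway of germ cells, rose with dose, MIOX, the myo-inositol oxygenase, and KRT8, a keratin of simple epithelia, were raised, and LMF1, a chaperone for lipases in the endoplasmic reticulum, fell. Each window runs from 250 bases before to 50 bases after the gene start in RefSeq (GRCh38.p14), 5′ to 3′ on the strand of the gene, with every CG in capitals. They lie at chr1:166975332-166975631, plus strand, for MAEL, chr22:50486609-50486908, plus strand, for MIOX, chr12:52926420-52926719, minus strand, for KRT8, and chr16:970935-971234, minus strand, for LMF1.
MAEL: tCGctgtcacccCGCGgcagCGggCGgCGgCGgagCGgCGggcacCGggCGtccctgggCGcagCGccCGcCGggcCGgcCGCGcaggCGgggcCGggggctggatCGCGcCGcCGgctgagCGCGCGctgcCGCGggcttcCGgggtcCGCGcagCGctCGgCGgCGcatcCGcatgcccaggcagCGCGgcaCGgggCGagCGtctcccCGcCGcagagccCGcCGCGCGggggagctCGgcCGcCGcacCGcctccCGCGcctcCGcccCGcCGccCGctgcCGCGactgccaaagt
MIOX: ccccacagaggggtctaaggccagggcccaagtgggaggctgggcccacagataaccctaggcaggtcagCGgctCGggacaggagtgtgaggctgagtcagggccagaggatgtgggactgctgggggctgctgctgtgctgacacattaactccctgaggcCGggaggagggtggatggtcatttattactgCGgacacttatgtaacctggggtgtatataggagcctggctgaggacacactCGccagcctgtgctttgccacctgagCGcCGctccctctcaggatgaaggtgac
KRT8: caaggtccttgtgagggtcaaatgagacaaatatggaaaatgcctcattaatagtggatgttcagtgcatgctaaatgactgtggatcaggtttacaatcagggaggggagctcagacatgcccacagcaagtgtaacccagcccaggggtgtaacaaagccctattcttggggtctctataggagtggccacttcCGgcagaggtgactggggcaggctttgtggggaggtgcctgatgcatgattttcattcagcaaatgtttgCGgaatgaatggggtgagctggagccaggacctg
LMF1: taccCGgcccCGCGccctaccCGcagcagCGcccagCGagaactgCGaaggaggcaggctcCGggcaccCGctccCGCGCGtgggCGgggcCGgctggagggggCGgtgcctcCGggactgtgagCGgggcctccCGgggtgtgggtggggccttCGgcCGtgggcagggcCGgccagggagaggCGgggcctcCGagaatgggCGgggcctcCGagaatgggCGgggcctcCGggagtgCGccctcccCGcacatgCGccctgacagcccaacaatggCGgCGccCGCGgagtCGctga
The MAEL window held 60 CG, that of MIOX 7, that of KRT8 2 and that of LMF1 35, where 27305 RefSeq windows of this length had a median of 14 (quartiles 3 and 28). The windows shown for raised genes thus range from more CG than 11.5% to more CG than 99.9% of all windows. A single window per gene was used, and other starts of a gene were not examined. A window was found for 71.3% of the genes tested, 72.2% of the higher and 79.2% of the lower genes. This is under the 80% required, so a comparison of CpG content between groups of genes is void and not given.

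The largest increases were ranked among called genes that had a mean of 1 CPM or more in each line and the same direction in 18 of 18 treated libraries, and those named here had low untreated levels. MAGEB1, an X-linked cancer-testis antigen, lay at 0 to 1.38 CPM untreated (median 0.0239) and at 0.0739 to 32.1 CPM treated (median 5.58), a log2 fold change of 4.76 (SE 1.08, adjusted p = 0.00888). COL6A1, a chain of collagen VI, lay at 0 to 0.698 CPM untreated (median 0.0913) and at 0.394 to 26.1 CPM treated (median 3.3), a change of 4.51 (SE 0.88, adjusted p = 0.00375). For both genes the ranges overlapped across the lines. Within blocks they did not, which the limit of 18 of 18 libraries required. MIOX lay at 0 to 0.669 CPM untreated (median 0.435) and at 0.873 to 8.73 CPM treated (median 3.21), a change of 3.30 (SE 0.48, adjusted p = 0.000546). No treated library of any line overlapped an untreated one for this gene. SFN, the cell-cycle inhibitor 14-3-3 sigma, went from a median of 0.452 to 2.43 CPM, a change of 3.51 (SE 0.67).

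The other 8 of these 12 genes rose by less. LPIN3, a phosphatidate phosphatase, rose by 3.0 (SE 0.62), MEGF6, a protein with EGF-like repeats, by 2.27 (SE 0.48) and RILP, an effector of RAB7 on late endosomes, by 2.24 (SE 0.41). CXCR3, the chemokine receptor of effector T cells, lay at 0 to 6.85 CPM untreated (median 0.927) and at 0.591 to 18.6 CPM treated (median 3.41), a change of 1.95 (SE 0.40, adjusted p = 0.00455). IGFBP4, a binding protein of insulin-like growth factors, rose by 1.80 (SE 0.26), DDR1, a collagen receptor kinase, by 1.73 (SE 0.43) and MDK, the growth factor midkine, by 1.43 (SE 0.20). IFITM2, an interferon-induced antiviral membrane protein, rose by 1.48 (SE 0.39). None of these 12 genes lost its call when any 1 library was left out.

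**Figure D3:**
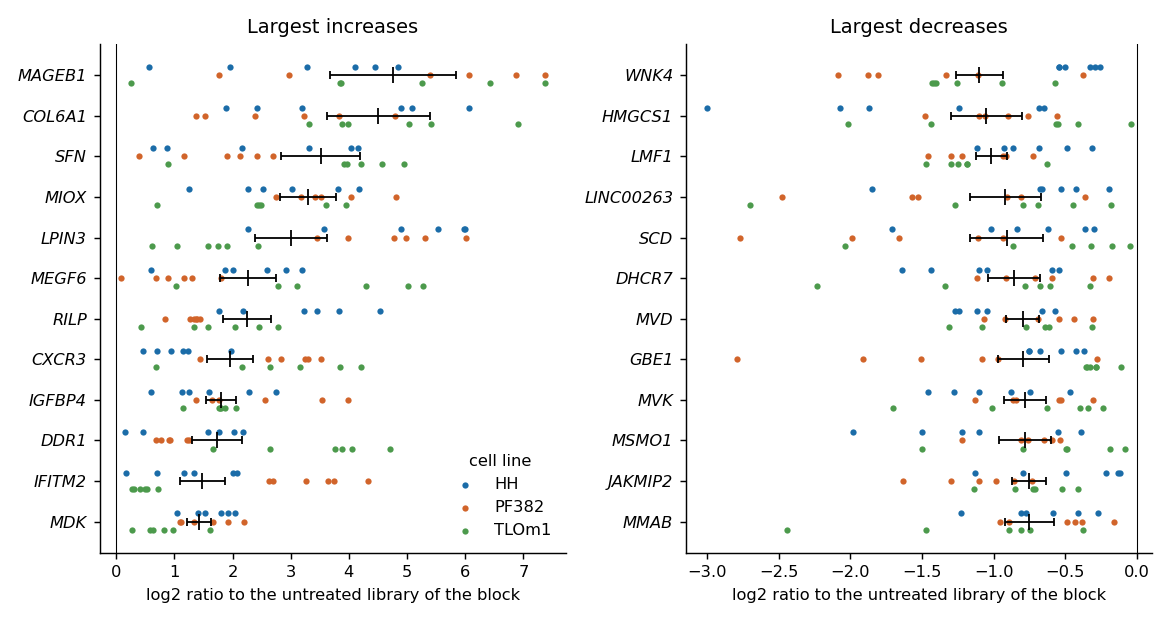
Log2 ratio of each treated library to the untreated library of its block (horizontal axis, points coloured by cell line) for the 12 largest increases and the 12 largest decreases, with the fitted log2 fold change and its SE in black. Ratios reach 7.37 for MAGEB1 and -3.00 for HMGCS1. All 18 points of a gene lie on the same side of 0, as the choice of these genes required.

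The 12 largest decreases under the same limits were smaller, and 5 of these genes make sterols. WNK4, a kinase that regulates ion transport, lay at 1.67 to 9.62 CPM untreated (median 5.92) and at 1.11 to 5.87 CPM treated (median 2.22), a change of -1.10 (SE 0.16, adjusted p = 0.000527). HMGCS1, the HMG-CoA synthase of the mevalonate pathway, lay at 220 to 962 CPM untreated (median 314) and at 72.4 to 597 CPM treated (median 171), a change of -1.05 (SE 0.25, adjusted p = 0.0108). LMF1 lay at 5.8 to 16.8 CPM untreated (median 7.34) and at 2.77 to 10.6 CPM treated (median 4.03), a change of -1.02 (SE 0.11, adjusted p = 9.34e-05). The groups overlapped for these genes across the lines. Within blocks they did not, which the same limits required. The sterol enzymes DHCR7, MVD, MVK and MSMO1 fell by 0.86, 0.80, 0.78 and 0.78, GBE1, the glycogen branching enzyme, by 0.79 (-0.50 without PF382 of the azacitidine set), JAKMIP2 by 0.76 and MMAB, an enzyme of vitamin B12 metabolism, by 0.75. SCD, the desaturase that makes oleate, changed by -0.91 (SE 0.25) and LINC00263, a long non-coding RNA, by -0.92 (SE 0.25). These 2 calls depended on single libraries. That of SCD was lost without HH (azacitidine set), PF382 (azacitidine set), TLOm1 (azacitidine set) or PF382 (decitabine set), with an adjusted p of up to 0.0857, and that of LINC00263 without PF382 (azacitidine set) or TLOm1 (azacitidine set), with an adjusted p of up to 0.0672.

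Genes named for their small p-values included small and even changes. MAPKAP1, the SIN1 subunit of the kinase complex mTORC2, lay at 117 to 141 CPM untreated and at 94.9 to 121 CPM treated, a change of -0.29 (SE 0.03, adjusted p = 0.000118), with -0.34 for HH, -0.28 for PF382 and -0.25 for TLOm1. DENND1A, an exchange factor for RAB35, fell by 0.39 (SE 0.05) and STX8, a syntaxin of endosome fusion, by 0.52 (SE 0.07). C3orf64 rose by 1.02 (SE 0.13), with 1.01 for HH, 1.06 for PF382 and 0.99 for TLOm1. FAM53B rose by 0.93 (SE 0.12), MRI1, an enzyme of methionine salvage, by 0.35 (SE 0.04), FAM111A, a protease that restricts viruses, by 0.31 (SE 0.04) and CRTAP, a cofactor of collagen prolyl hydroxylation, by 0.30 (SE 0.04). None of these 8 genes lost its call when any 1 library was left out. In bulk RNA, fewer cells that express a gene and less of its RNA per cell cannot be told apart.

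Of the drug targets, DNMT1, the maintenance methyltransferase, lay at 370 to 723 CPM untreated and at 379 to 745 CPM treated, with a log2 fold change of 0.13 (SE 0.06, adjusted p = 0.137). DNMT3A, a de novo methyltransferase, had 0.29 (SE 0.13, adjusted p = 0.123). Neither passed the test. DNMT3B, its paralog, was higher by 0.73 (SE 0.19), adjusted p = 0.0161. It lay at 30.9 and 57.6 CPM in untreated PF382 and at 58.7 to 127 CPM in treated PF382, at 2.29 to 3.68 CPM in treated TLOm1 and under 1 CPM in every HH library. The call of DNMT3B was lost without either untreated PF382 library (adjusted p up to 0.111), and the change was 0.49 without that of the decitabine set. Of 24 genes of the methylation machinery, 1 was higher (4.17%) and 2 were lower (8.33%), against 8.89% and 5.33% of all genes.

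Many cancer-testis and germline genes rose. Of 60 tested, of 77 listed, 27 were higher and 2 were lower, against 8.89% and 5.33% of all genes. Most passed the filter through treated libraries only, and among members at 1 CPM or more untreated 3 were higher and 2 were lower. The median log2 fold change was 3.16, or 2.83 with the 11 members without an untreated count at their lower bound. BRDT, the testis bromodomain protein, had an untreated median of 0 CPM (highest 0.175) and a treated median of 1.82 CPM (0 to 14.8), and PAGE5 went from 0.0425 to 1.72 CPM (highest 34.6). SSX1 had 3 counts over the untreated and 3006 over the treated libraries. The groups overlapped at the lowest doses. SSX, PAGE and MAGE-A genes are near-identical copies, so the split of reads among them is uncertain. The list count leaned on single controls: without 1 untreated library it was 9 to 21 higher, the lowest without TLOm1 (azacitidine set) and 15 without PF382 (azacitidine set).

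Some genes were silent in all untreated cells and active after treatment in every block. Of 7124 genes under 0.1 CPM in each untreated library, 16 reached 0.5 CPM in at least 1 treated library of all 6 blocks, 10 did so in 5 blocks and 6626 in none (CPM before TMM scaling). The opposite pattern, 0.5 CPM or more in each untreated and under 0.1 CPM in each treated library, was found for 0 genes. This rule is stricter, since it asks for every dose of a block, so the counts cannot be compared. These values chose the genes, so they are a description. MAGEA1 had 0 untreated and 1688 treated counts, and its highest level in a block was 1.59 CPM in HH with decitabine and 16 CPM in PF382 with azacitidine. Set against a floor of 3 counts over the untreated group, MAGEA1 was at least 179-fold higher, CTAG2, of the NY-ESO-1 family, at least 136-fold, MAGEA12 at least 115-fold and MAGEA3 at least 88.1-fold. CTCFL, the germline paralog of the insulator protein CTCF, had 3 untreated and 1121 treated counts, and C12orf40 had 2 and 828. These bounds cover counting error only.

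Other groups known for control by methylation are read against the 8.89% of all genes that were higher. Of 28 clustered protocadherins tested, 7 were higher (25%) and 0 were lower. Only 4 of the 28 had an untreated mean of 1 CPM or more, and 1 of these was higher. Members under that level passed the filter on low counts largely through treated libraries. PCDHB13 rose by 1.02 (SE 0.23), from 3.45 and 3.94 to 5.81 to 10 CPM in PF382, and stayed under 0.5 CPM in the other lines, and PCDHB6 had 0 untreated and 76 treated counts, at least 8.07-fold higher. Reads of these similar genes may be shared, and the call of PCDHB13 was lost without PF382 (decitabine set) (adjusted p = 0.0507). Of 60 zinc finger genes of the 19q13 clusters, 4 were higher and 0 were lower, and the higher share of 6.67% was not above that of all genes. ZNF772 lay at 0 to 0.246 CPM untreated (median 0.0485) and at 0.0656 to 14.3 CPM treated (median 0.882), a change of 4.45 (SE 0.70, adjusted p = 0.000882), and ZNF274 rose by 0.37 (SE 0.06), both in 18 of 18 libraries. Of 21 genes in the imprinted list, 3 were higher (14.3%) and 0 were lower. H19, the imprinted long non-coding RNA, had 0 untreated and 2742 treated counts, of which 1078 came from HH at 250 nM azacitidine (46.1 CPM) and 948 from TLOm1 at 5 nM decitabine (35 CPM). Its treated median was 0.103 CPM, it reached at most 0.488 CPM in PF382, and its adjusted p was 0.0484. The transcription factor WT1 rose by 1.63 (SE 0.30) in the pooled test, from 9.64 and 11.1 to 20.7 to 62.4 CPM in PF382, and stayed under 0.5 CPM in the other lines. Of 23 HOX genes 2 were higher and 0 were lower, a higher share of 8.7%, near that of all genes, and HOXB7 rose by 0.46 (SE 0.10).

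The RNA of genes of cholesterol synthesis and uptake fell almost as a whole. The synthesis pathway runs from acetyl-CoA through mevalonate and squalene to cholesterol, under the SREBP transcription factors. Of 24 genes of synthesis and uptake tested, 21 were lower and 0 were higher, against 5.33% lower over all genes, with a median of -0.59. MVD, which decarboxylates mevalonate diphosphate, lay at 61.1 to 249 CPM untreated (median 173) and at 29.1 to 168 CPM treated (median 90), a change of -0.80 (SE 0.12, adjusted p = 0.000507), with -0.96 for HH, -0.64 for PF382 and -0.77 for TLOm1. FDPS, the synthase of farnesyl diphosphate, fell by 0.74 (SE 0.13), HSD17B7, a sterol reductase, by 0.70 (SE 0.13) and LSS, the cyclase that forms lanosterol, by 0.45 (SE 0.09), each in 18 of 18 treated libraries. The list median was under 0 in all 6 blocks at each dose. It was -0.44 to -0.17 over the blocks at the lowest dose, -0.83 to -0.34 at the middle and -1.31 to -0.45 at the highest. Leaving out 1 untreated library left 18 to 21 of these genes lower, and leaving out a line 14 to 20.

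Of 16 genes of fatty acid synthesis, 1 was higher (6.25%) and 5 were lower (31.2%), against 8.89% and 5.33% of all genes. ACLY, which makes cytosolic acetyl-CoA, fell by 0.34 (SE 0.07) in 18 of 18 libraries and ACACA, the carboxylase that commits it to fatty acids, by 0.28 (SE 0.07). The call of ACACA was lost without TLOm1 (azacitidine set) (adjusted p = 0.0535). The lower genes of this list also included SCD and TMEM97, a sterol-responsive membrane protein. Their calls were lost in 4 and 3 of 24 single omissions (adjusted p up to 0.0948).

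Of 35 glycolysis and hypoxia genes, 0 were higher and 13 were lower (37.1% against 5.33% of all genes), with a median of -0.35. PFKM, a phosphofructokinase, lay at 62.7 to 231 CPM untreated (median 97.7) and at 52.9 to 172 CPM treated (median 73), a change of -0.37 (SE 0.08, adjusted p = 0.00799). ALDOC, an aldolase, changed by -1.06 (SE 0.27), ENO1, enolase, by -0.45 (SE 0.12) and TPI1, triosephosphate isomerase, by -0.48 (SE 0.13). ALDOC lay at 411 and 527 CPM in untreated HH and at 104 to 470 CPM treated, at 30 and 89.8 CPM in untreated PF382 and at 7.58 to 28.8 CPM treated, and at 20.8 and 46.2 CPM in untreated TLOm1 and at 6.44 to 27.1 CPM treated. This list leaned on the untreated PF382 library of the azacitidine set. In its block the list median was -0.90 at the lowest dose, where the other blocks lay at -0.10 to 0.04. Without that library 1 gene was lower, the median was -0.20, and the calls of ENO1, ALDOC and TPI1 were lost, with changes of -0.29, -0.67 and -0.32 (adjusted p up to 0.0812). Without HH (azacitidine set) 6 genes were lower, without TLOm1 (azacitidine set) 7 and without PF382 (decitabine set) 8.

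The core of the hypoxia response element, ACGTG, was searched on both strands of the RefSeq windows. It overlaps the E-box CACGTG. It was present in 14 of 31 windows of this list (45.2%) and in 21.6% of all windows, a description of letters only. The windows of the other lists searched held it in 27.5% (germline), 28.2% (replication) and 31.1% (ribosomal proteins). The windows of ALDOC, at chr17:28576846-28577145, minus strand, and of PGK1, phosphoglycerate kinase, at chrX:78103998-78104297, plus strand, are shown with matches in capitals, since each held 3 over both strands. The stretch CACGTG of ALDOC matches on each strand and was counted for both, so fewer stretches than matches are in capitals there.
ALDOC: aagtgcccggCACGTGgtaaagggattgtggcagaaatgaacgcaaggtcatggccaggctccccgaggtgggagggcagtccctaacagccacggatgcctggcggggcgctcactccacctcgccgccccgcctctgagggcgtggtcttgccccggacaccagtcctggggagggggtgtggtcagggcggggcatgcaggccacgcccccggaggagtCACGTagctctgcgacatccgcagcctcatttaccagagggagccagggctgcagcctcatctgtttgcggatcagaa
PGK1: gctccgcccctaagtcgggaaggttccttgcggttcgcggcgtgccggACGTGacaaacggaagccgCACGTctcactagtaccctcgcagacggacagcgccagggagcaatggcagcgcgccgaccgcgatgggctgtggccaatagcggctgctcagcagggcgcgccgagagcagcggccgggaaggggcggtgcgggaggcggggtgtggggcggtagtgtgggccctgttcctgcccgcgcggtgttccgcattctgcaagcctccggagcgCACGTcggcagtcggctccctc
PGK1 was lower by 0.51 on the log2 scale (SE 0.14, adjusted p = 0.0249) and was chosen after its value was seen.

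Few genes of growth and protein synthesis were called in the pooled test, and their shares are read against the 5.33% of all genes that were lower. Of 42 MYC and ribosome biogenesis genes, 0 were higher and 2 were lower (4.76%), no more than over all genes. Of 76 ribosomal protein genes 0 were higher and 7 were lower (9.21%), RPL5 by 0.18 (SE 0.04) among them. Of 50 genes of oxidative phosphorylation 0 were higher and 8 were lower (16%), among them COX7C, a subunit of cytochrome oxidase, by 0.28 (SE 0.06) and NDUFS7, a subunit of complex I, by 0.27 (SE 0.07). Of 20 tRNA synthetases 0 were higher and 4 were lower (20%). Among these, the calls of AARS and GARS were lost in 2 and 3 of 24 single omissions (adjusted p up to 0.0912). MYC, the growth regulator, lay at 160 to 479 CPM untreated and at 115 to 497 CPM treated and changed by -0.49 (SE 0.12), a call lost without PF382 (decitabine set) (adjusted p = 0.0618). Of 32 targets of the integrated stress response, 2 were higher (6.25%) and 1 was lower (3.12%), no more than over all genes (8.89% and 5.33%). The pooled count hides a split: at the highest dose the list median was 0.01 to 0.87 in the azacitidine set and -0.36 to -0.22 in the decitabine set. This split was not tested for the list. The calls of SHMT2, SLC1A4 and ATF5 were lost in 4, 8 and 10 of 24 single omissions.

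**Figure D4:**
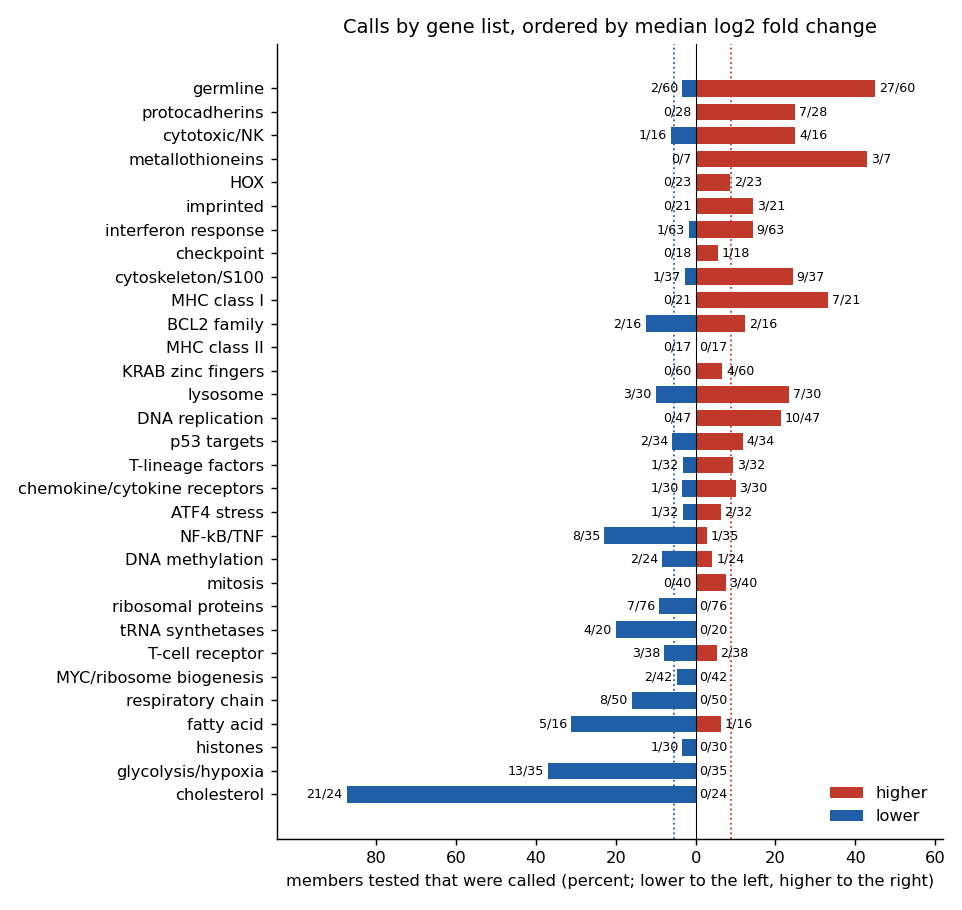
Share of the tested members of each gene list called higher or lower in treated cells, with dotted lines at the shares over all genes tested (8.89% higher, 5.33% lower). Cholesterol genes (21 of 24 lower) and germline genes (27 of 60 higher) lie farthest from those lines among the larger lists.

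Interferon-induced and MHC class I genes were raised in part. Of 63 interferon genes, 9 were higher (14.3% against 8.89% of all genes) and 1 was lower (1.59% against 5.33%), with a median of 0.21. OAS3, a sensor of double-stranded RNA, lay at 37.8 and 47.7 CPM in untreated PF382 and at 55.4 to 92.5 CPM treated, and at 38.7 and 50.2 CPM in untreated TLOm1 and at 51.5 to 80.8 CPM treated, a pooled change of 0.68 (SE 0.10, adjusted p = 0.000452). Neither line overlapped between the groups. IFITM3, a paralog of IFITM2 with which reads may be shared, rose by 1.99 (SE 0.46), and it stayed under 0.5 CPM in HH. CXCL10, an interferon-induced chemokine, fell by 0.90 (SE 0.15), from 41.3 and 70.8 to 22.2 to 48.2 CPM in HH and from 6.64 and 7.08 to 1.62 to 6.05 CPM in TLOm1, and was at 0 in PF382. Without TLOm1 of either set among the untreated libraries 3 interferon genes were higher, and without HH (azacitidine set) 5. Of 21 MHC class I genes 7 were higher (33.3%) and 0 were lower, the heavy chain HLA-C by 0.37 (SE 0.07) among them. Among the others, the call of NLRC5 was lost without TLOm1 (azacitidine set) (adjusted p = 0.0522). That of TAP2 was lost without HH (azacitidine set) or PF382 (azacitidine set) (adjusted p up to 0.0616). Of 17 MHC class II genes 0 passed in either direction.

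Genes of NF-kB and TNF receptors were mostly lower where called. Of 35, 1 was higher (2.86%) and 8 were lower (22.9%), against 8.89% and 5.33% of all genes. TRAF1, an adaptor of TNF receptors, lay at 1120 and 1420 CPM in untreated HH and at 446 to 935 CPM treated, and at 954 and 1100 CPM in untreated TLOm1 and at 475 to 875 CPM treated, a pooled change of -0.76 (SE 0.12, adjusted p = 0.00105). Neither of these lines overlapped between the groups. TNFAIP3, the feedback inhibitor A20, fell by 0.51 (SE 0.08) and TNFRSF14, the receptor HVEM, by 0.36 (SE 0.07), the latter in 18 of 18 libraries. TNFRSF9, the co-receptor 4-1BB, changed by -1.63 (SE 0.36), and it stayed under 0.5 CPM in PF382 and TLOm1. This call was lost without either untreated HH library (adjusted p up to 0.081). The higher member was TNFRSF4, the receptor OX40, at 1.27, named after its value was seen.

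T-cell genes changed singly. Of 38 genes of T-cell receptor signaling, 2 were higher (5.26%) and 3 were lower (7.89%), against 8.89% and 5.33% of all genes. LAT, the adaptor that links the receptor to calcium signals, went from a median of 33.5 to 74.6 CPM, a change of 0.79 (SE 0.14, adjusted p = 0.00208) in 18 of 18 libraries. CD8A rose by 0.98 (SE 0.23), and it was above 1 CPM only in PF382, at 19.9 and 23.4 CPM untreated and up to 57.5 CPM treated. RASGRP1, an exchange factor for RAS, changed by -0.59 (SE 0.16), a call lost without PF382 (azacitidine set), TLOm1 (azacitidine set) or PF382 (decitabine set), with an adjusted p of up to 0.081. Of 32 T-lineage transcription factors 3 were higher (9.38%) and 1 was lower (3.12%). RUNX1 rose by 0.39 (SE 0.08) in 18 of 18 libraries, and KLF2, a factor of T-cell quiescence, by 1.68 (SE 0.43), which was lost without either untreated PF382 library (adjusted p up to 0.0557). Of 30 chemokine and cytokine receptors 3 were higher (10%) and 1 was lower (3.33%), with CXCR3 the strongest of the higher genes.

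Of 16 cytotoxic and NK genes, 4 were higher (25%) and 1 was lower (6.25%), against 8.89% and 5.33% of all genes. NCAM1, also called CD56, rose by 0.85 (SE 0.21), and TYROBP, an adaptor of NK receptors, had 3 untreated and 111 treated counts and stayed under 1 CPM in every library. CST7, an inhibitor of cathepsins, lay at 5.4 and 6.06 CPM in untreated HH and at 9.31 to 37.3 CPM treated, and under 1 CPM in the other lines. Its pooled change of 1.62 (SE 0.43) was lost without either untreated HH library (adjusted p up to 0.158). Of 18 costimulatory and checkpoint genes, 1 was higher (5.56%) and 0 were lower. The higher gene was CD86, a costimulatory ligand, at 1.17 (SE 0.34), a call lost without HH (azacitidine set), TLOm1 (azacitidine set) or HH (decitabine set), with an adjusted p of up to 0.0932.

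A part of the replication genes rose. Of 47, 10 were higher and 0 were lower (21.3% against 8.89% of all genes higher), with a median of 0.07. At the highest dose the list median was above 0 in 3 blocks and below 0 in 3, from -0.33 to 0.29. With the rank of the dose among treated libraries, 0 of the 47 rose and 10 fell, against 10.7% and 9.1% of all genes. CCNE2, the G1/S cyclin E2, rose by 0.30 (SE 0.06), MCM10, a factor of origin firing, by 0.29 (SE 0.07), TK1, thymidine kinase, by 0.40 (SE 0.09) and TIMELESS, which protects replication forks, by 0.23 (SE 0.05). These changes are small beside those of the germline genes, and the count was 4 without TLOm1 of either set among the untreated libraries and 6 without HH (azacitidine set). Of 40 mitotic genes 3 were higher (7.5%) and 0 were lower, GTSE1, a regulator of p53 and microtubules in G2, by 0.27 (SE 0.05) among them. Of 30 replication-dependent histone genes, whose transcripts lack poly(A) tails, 0 were higher and 1 was lower (3.33% against 5.33% of all genes). Of 16 BCL2 family genes 2 were higher (12.5%) and 2 were lower (12.5%). Among these, the calls of BCL2L12, MCL1 and BCL2L2 were lost in 3, 3 and 14 of 24 single omissions (adjusted p up to 0.129).

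Of 34 p53 targets, 4 were higher (11.8%) and 2 were lower (5.88%), near the 8.89% and 5.33% of all genes. CYFIP2, a regulator of actin assembly, fell by 0.46 (SE 0.07) in 18 of 18 libraries, FAS, the death receptor, fell by 0.31 (SE 0.07), and TP53I3 rose by 1.01 (SE 0.25) in 18 of 18. Of 30 lysosomal genes 7 were higher (23.3%) and 3 were lower (10%). CD68, a lysosomal membrane protein, rose by 0.75 (SE 0.15), and NPC2, which carries cholesterol in the lysosome, fell by 0.34 (SE 0.06) in 18 of 18 libraries. Of 37 genes of the actin cytoskeleton, annexins and S100 proteins 9 were higher (24.3%) and 1 was lower (2.7%). FLNA, the actin crosslinker filamin A, lay at 584 to 2160 CPM untreated and at 782 to 3300 CPM treated and rose by 0.60 (SE 0.15). The calls of MYL9, MYO1F and VIM, also higher in this list, were lost in 1, 3 and 3 of 24 single omissions (adjusted p up to 0.129). Of 7 metallothioneins 3 were higher (42.9%) and 0 were lower, MT2A by 0.71 (SE 0.14) and MT1X by 0.43 (SE 0.09) among them. Metallothioneins are short and similar, so their reads may be shared.

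A few markers of other cell types were higher, most of them epithelial. Of 11 epithelial markers tested, of 15 listed, 4 were higher (36.4% against 8.89% of all genes) and 0 were lower. Only 5 of the 11 had an untreated mean of 1 CPM or more, and 1 of these was higher. Members under that level passed the filter on low counts largely through treated libraries. KRT8 went from 1.29 and 2.3 to 7.09 to 23.1 CPM in PF382 and from 6.84 and 11 to 22.9 to 111 CPM in TLOm1, and stayed under 2 CPM in HH, a pooled change of 2.89 (SE 0.36, adjusted p = 0.000225). KRT18, its partner keratin, rose by 2.62 (SE 0.54) to at most 19.7 CPM and was at 0 in HH. DSP, a desmosomal protein, lay at 0 and 0.328 CPM in untreated PF382, at 0.83 to 2.15 CPM in treated PF382 and at most 0.222 CPM in the other lines. Its fitted change of 3.14 (SE 0.63) ranged from 2.50 without PF382 (decitabine set) to 5.64 without PF382 (azacitidine set), the only untreated library with a count of it. The summed level of the list was 16.2 to 129 CPM untreated and 31.4 to 196 CPM treated. Of 8 fibroblast and endothelial markers 2 were higher and 0 were lower, and 0 of the 4 at 1 CPM or more untreated were higher. Of 8 B-cell markers 1 was higher and 1 was lower, and 0 of the 4 at 1 CPM or more untreated were higher. Of 6 myeloid and 6 erythroid or megakaryocyte markers 0 passed in either direction. The part of other cells in these results was not tested.

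Among treated libraries alone, a fit that uses no untreated library, 1781 of 16696 genes (10.7%) rose with the rank of the dose and 1520 (9.1%) fell, 3301 (19.8%) in all. Of the 1495 higher genes 670 (44.8%) rose with dose and 1 fell, and of 892 lower genes tested 364 (40.8%) fell and 0 rose. The median log2 ratio of the higher genes was 0.37 at the lowest, 0.63 at the middle and 0.78 at the highest dose, and that of the lower genes -0.17, -0.26 and -0.34. Among genes at 5 CPM or more, the smallest p-values of the rising genes belonged to MAEL, with a slope of 2.43 log2 units per dose step (SE 0.12, adjusted p = 4.22e-09), TKTL1, a transketolase-like gene (2.56), DCAF4L1 (1.63), PNMA5 (2.90), SMC1B, the meiotic cohesin (0.85), and GATS (0.38). Those of the falling genes belonged to MVD, with -0.29 (SE 0.03, adjusted p = 2.5e-06), SQLE, squalene epoxidase (-0.31), DHCR7 (-0.45), FBXO41 (-0.25), FDPS (-0.32) and TMEM97, a sterol-responsive membrane protein (-0.24). These 12 slopes stayed called when any 1 treated library was left out. MAEL lay at 0 to 64.2 CPM in treated and at most 0.41 CPM in untreated libraries.

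Lists and single genes differed in how they followed dose. Of the germline genes 44 of 60 rose with dose, against 10.7% of all genes. The germline list median went from 0.00 to 0.58 over the blocks at the lowest dose to 1.60 to 4.40 at the highest. Of the cholesterol genes 23 of 24 fell. More growth genes fell with dose than were lower in the pooled test, 30 of 42 for MYC and ribosome biogenesis, 33 of 50 for oxidative phosphorylation and 23 of 76 for ribosomal proteins, against 9.1% of all genes. LMF1 and MAPKAP1 did not pass the slope test, with -0.04 (SE 0.07, adjusted p = 0.764) and -0.01 (SE 0.02, adjusted p = 0.703), and the sign of each changed under single omissions. The mean log2 ratio of LMF1 was -0.91, -1.12 and -0.96 from the lowest to the highest dose, and that of MVD -0.48, -0.89 and -1.06.

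**Figure D5:**
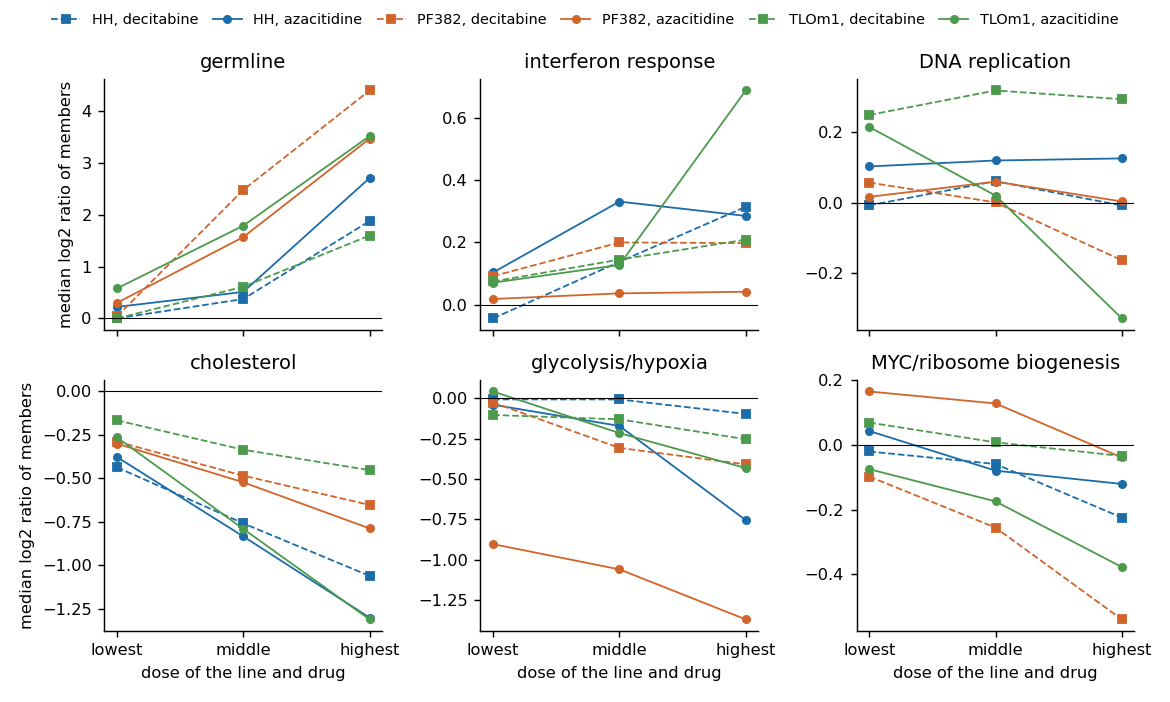
Median log2 ratio of the tested members of 6 gene lists in each treated library against its untreated library, by dose rank of the line and drug, with 1 line per block. Germline medians climb to 1.60 to 4.40 and cholesterol medians fall to -1.31 to -0.45 at the highest dose, and the PF382 azacitidine block starts at -0.90 for the glycolysis list.

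The effect differed between the lines for 321 of 17190 genes (1.87%), 37 of them among the higher and 9 among the lower genes. VAMP8, a SNARE of granule secretion, lay at 1.87 and 2.71 CPM in untreated and 9.04 to 17.5 CPM in treated PF382, with fitted changes of 0.01 for HH, 2.55 for PF382 and 0.39 for TLOm1 (adjusted p of the difference 0.000526). SLC25A24, a mitochondrial carrier, lay at 13.5 and 16 CPM in untreated and 37.9 to 75.9 CPM in treated PF382, with 0.14 for HH, 1.75 for PF382 and -0.14 for TLOm1. In both genes the groups were apart in PF382 and overlapped in HH. MYO7B, an unconventional myosin, lay at 93.2 and 219 CPM in untreated and 192 to 757 CPM in treated PF382 and at 47.8 and 53.8 CPM in untreated and 26.6 to 46.5 CPM in treated HH. ARHGAP9, a GTPase-activating protein of blood cells, had changes of 2.72 for HH, -0.04 for PF382 and -0.72 for TLOm1, and in HH it lay at 0.0439 and 0.16 CPM untreated, near the floor, and at 0.262 to 0.878 CPM treated. IL27RA, a cytokine receptor, had -0.27 for HH, -0.14 for PF382 and 2.04 for TLOm1. In TLOm1 it lay at 0.143 and 0.733 CPM untreated, the lower near the floor, and at 0.702 to 3.2 CPM treated, so the groups overlapped. PGCP, a carboxypeptidase, had 0.33 for PF382 and -0.63 for TLOm1. In HH, PGCP lay at 0 and 0.0439 CPM untreated, under the floor, and at 0.103 to 0.685 CPM treated, so no fold is given. None of these 6 genes lost its difference when any 1 library was left out. The count was less stable: leaving out 1 library gave 84 to 630 genes, 84 without PF382 (azacitidine set) and 630 without PF382 at 5 nM decitabine.

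The same line in the other set gave the closest response. Across 11278 genes with a mean of 5 CPM or more, the mean log2 ratios of the azacitidine and decitabine blocks of a line, which share no library, had Pearson correlations of 0.678 for HH, 0.646 for PF382 and 0.657 for TLOm1. Between different lines they were 0.199 to 0.387. These are correlations across genes, which are not independent replicates. By edgeR the effect differed between the sets for 0 of 17190 genes, with 719 at an unadjusted p under 0.05, by DESeq2 for 1 gene and by limma voom for 0. A test that misses its threshold does not show that the sets acted alike.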

How the data were processed

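Per the labels, RNA of 24 samples of the HH, PF382 and TLOm1 lines was sequenced from stranded libraries, described both as polyA RNA and as depleted of ribosomal RNA. The authors deposited whole read counts per gene, 1 table of 25559 genes for each library, and STAR, limma, DESeq2 and the GRCh37.p2 build appear in the processing notes of the submitters, without versions or parameters. How reads shared by similar genes were counted is not given in the sources used here.

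From these counts, genes with low counts were removed (filterByExpr), libraries were scaled by TMM, and edgeR 4.0.16 in R 4.3.3 tested 1 treated term with 6 blocks by its quasi-likelihood F test with robust dispersion and Benjamini-Hochberg adjustment at 0.05. Further edgeR fits tested the slope on dose rank in treated libraries, treatment by line and treatment by set. DESeq2 1.42.0, limma 3.58.1 voom, other scalings and filters, other blocks, single doses and omitted libraries or lines were alternatives. Log2 ratios of single libraries used a prior count of 2. All 24 tables were used, with 13892514 to 32496676 counts each. The edgeR fits were tested on simulated data. Each treated library was paired with the untreated library of its line and set through the block.

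Named genes were, among called genes with 1 direction in 18 of 18 treated libraries and a mean of 1 CPM in each line, the 12 largest increases, the 12 largest decreases and the 8 smallest p-values not yet named, then up to 4 members of each of 36 lists by p, 6 genes of the line test, 6 of each slope direction at a mean of 5 CPM, 6 silent genes and the DNMT genes. Some genes that this rule names are not reported here. Members and lists were chosen with earlier results of these data known. RefSeq windows (GRCh38.p14) were matched by symbol for 10609 genes and by synonym for 1369.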

Additional observations from a re-analysis of the deposited data

Results flagged for a closer look

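In 5 genes 1 of the 6 untreated libraries lay far from the others, by the gap of the extreme library over the range of the log2 levels. The levels in these libraries were 0.132 CPM for SSX1 in HH (azacitidine set), 0.106 CPM for C12orf40 in HH (decitabine set), 0.0431 CPM for MYL9 in TLOm1 (azacitidine set), 0.328 CPM for DSP in PF382 (azacitidine set) and 0.369 CPM for COL5A1 in PF382 (azacitidine set). They were the highest of the untreated libraries, and all were under 0.5 CPM. Of 137 groups of untreated libraries tested, 5 met this limit, where chance gives about 5%.

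The treated effect differed between lines for 9 of the 135 genes with reported values. The adjusted p of the difference was 0.000526 for VAMP8, 0.000531 for MYO7B, 0.000531 for ARHGAP9, 0.000531 for SLC25A24, 0.0013 for IL27RA and 0.0016 for PGCP. These 6 were named for this difference, and none lost it when any 1 library was left out. IFITM2, an antiviral membrane protein, changed by 1.49 for HH, 3.79 for PF382 and 0.47 for TLOm1 (adjusted p of the difference 0.0472). In PF382 it lay at 0.234 and 0.328 CPM untreated, not far above the floor, and at 2 to 6.4 CPM treated. TP53I3, a p53 target, changed by 0.48 for HH, 2.65 for PF382 and 0.73 for TLOm1 (0.0394). ASAH1, acid ceramidase, changed by 0.05 for HH, 0.28 for PF382 and 0.77 for TLOm1 (0.0419). These 3 lie near the threshold, and the call was lost in 16 of 24 omissions of a single library (adjusted p up to 0.187) for IFITM2, in 13 of 24 omissions of a single library (adjusted p up to 0.248) for TP53I3 and in 15 of 24 omissions of a single library (adjusted p up to 0.26) for ASAH1, the untreated libraries HH (azacitidine set) and TLOm1 (azacitidine set) among them each time. The pooled call of ASAH1 was lost without either untreated TLOm1 library.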

How the results depend on the processing

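Counts of genes higher and lower stayed within 1.5 times of 1495 and 896 under other scalings (1491 and 929 by RLE, 1500 and 932 by upper quartile), other filters (1290 and 723, 1312 and 865), DESeq2 (1840 and 1145) and limma voom (1785 and 1157). They fell to 692 and 526 without HH, 992 and 749 without PF382, 438 and 302 without TLOm1, 552 and 165 with the line alone as block, and 0 and 0 with no block, and they were 230 and 135 at the lowest dose alone, 632 and 200 at the middle, 831 and 347 at the highest and 980 and 187 with the 3 doses summed. The smaller fits hold fewer samples; for the other blocks the cause was not tested. Leaving out 1 library gave 736 to 1665 higher and 378 to 1011 lower genes, 1457 to 1925 rising and 1049 to 1656 falling with dose, and 84 to 630 with a line difference, beyond 1.5 times in 14 of 24 omissions. Rising genes numbered 1177 without TLOm1 and falling genes 803 without PF382. DESeq2 called 1325 genes for lines and 1 for sets, the cause of which was not tested. Genes detected at common depth stayed above the untreated by 332.4 to 903.5 with other minimum counts, without a line, or both. Of 126 called genes followed through the omissions, 77 kept their call in all 24 single omissions, 49 lost it in some and 0 changed direction. H19, MAGEA1, CTAG2, MAGEA12 and MAGEA3, which had no untreated count, were not among them. The LMF1 dose rank slope ranged from -0.0883 to 0.0255 without single libraries and was 0.0374 without TLOm1, and the MAPKAP1 dose rank slope ranged from -0.027 to 0.0013 and was 0.0068 without PF382, all short of the threshold. Of 216 list medians under alternatives 14 moved beyond the spread. The CpG alternative was not run because too few genes had a window. At 3 counts as a floor, levels under about 0.2 CPM could not be told from 0.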

Other observations

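Of the interferon genes 21 of 63 rose with dose and 2 fell, against 10.7% and 9.1% of all genes. Of the 7 metallothioneins tested 0 rose and 0 fell, and so few genes cannot be set apart from these shares. The interferon list median was -0.04 to 0.10 over the blocks at the lowest dose and 0.04 to 0.69 at the highest. LOC100129291, a locus without a gene symbol, had the highest treated median of the silent genes, 2.16 CPM before TMM scaling, with 5 untreated and 1132 treated counts. The other silent genes, named after their values were seen, were MAGEA6, CSAG1, SUMO1P1, CLEC2L, SPDYC, SSX5, DDX53, TSPYL6 and LOC100128098, with 0.246 to 1.02 CPM as treated medians.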
